A study of Mus musculus with 177 samples.

Results

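The effect of hypoxia on the eye was measured in newborn mice whose oxygen was restored with pure oxygen. The 20 arrays concerned are 11 of eyes given hypoxia and then 100% oxygen (H100) and 9 of eyes given air and then 100% oxygen (N100), out of 177 arrays in the series. They were chosen by their titles alone. All animals were C57BL/6 mice on postnatal day 7. The H100 mice breathed an oxygen fraction of 0.08 for 120 min and the N100 mice breathed air (0.21) for the same time. Both groups then breathed 100% oxygen for 30 min and air for 150 min, after which lung, brain and eye were taken. The same study held H21, H40 and H60 eyes (hypoxia, then 21%, 40% or 60% oxygen) and N21 eyes (air throughout), with 9, 10, 9 and 9 arrays. The labels name no genetic modification of the mice in any group. The labels do not say what part of the orbit an eye sample held, nor whether a replicate number marks the same mouse in the 3 tissues. The labels number the arrays as replicates and name no litter, so the p-values below measure the spread between these arrays.

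When oxygen is short, the HIF-alpha subunits escape the oxygen-dependent hydroxylases, join HIF-beta and bind a short core sequence in target genes, among them genes of glycolysis and the gene of the vessel growth factor VEGF. Newborn mice complete their retinal vessels and photoreceptors after birth, and the retina is known for a high rate of glycolysis. Stress also releases glucocorticoids, whose receptor raises genes such as Fkbp5, Zbtb16 and the metallothioneins, and low insulin and PI3K signalling frees the FoxO factors, which raise genes that restrain growth. Here the tissue was sampled after recovery in air.

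The arrays held eye. Cryaa, the alpha crystallin of the lens, lay between 14.17 and 14.33 in H100 eyes and between 14.11 and 14.27 in N100 eyes on the deposited log2 scale. The rod factor Nrl lay between 9.23 and 9.79 in H100 eyes and between 9.02 and 9.73 in N100 eyes. The lung surfactant gene Sftpc reached at most 5.25 and 5.87 in the same groups, against at least 14.12 in H100 lungs, and the forebrain factor Neurod6 reached at most 4.34 and 3.74, against at least 8.74 in H100 brains. One array of another group, H40 replicate 9, had the profile of lung (Pearson r across genes 0.957 with the mean lung and 0.881 with the mean eye array) and was left out. Among the 9 H40 eyes kept, the highest Sftpc level was 9.05, against a median of 5.28. The array with that level stayed in the fits, and its part in the results of the H40 eyes was not tested.

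Before the results, 2 features of the arrays need stating. The first is a set of secreted proteins that were on in some eyes and off in others. Bpifa6 stood between 10.95 and 13.73 in 18 of the 56 eye arrays and between 3.16 and 4.42 in the other 38, with none between. Those 18 arrays also had higher levels of Obp1a (median 11.10, against 4.36 in the other 38), Bpifa2 (9.90 against 4.81), Pip (8.53 against 3.52), Ltf (9.20 against 5.46) and Lpo (6.94 against 5.31), genes for proteins known from exocrine gland secretions, and of the epithelial gene Epcam (9.52 against 6.15). Bpifa6 was high in 5 of 11 H100 eyes (replicates 1, 3, 4, 5 and 8) and in 1 of 9 N100 eyes (replicate 8). It was high in 5 of 9 H21, 3 of 9 H40 and 1 of 9 H60 eyes, which together make 9 of 27, and in 3 of 9 N21 eyes. High Bpifa6 therefore went with H100 against N100 but was as frequent in the other hypoxia eyes as in N21 eyes. In a fit with high Bpifa6 as a term, 2933 of 19937 genes (14.7%) differed between arrays with and without it at an adjusted p under 0.05 (limma, Benjamini-Hochberg), 1358 of them higher and 1575 lower in arrays with it. These genes and the limit of 6 on the log2 scale were chosen after the values had been seen, and each result below is given with and without that term where it matters.

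**Figure D1:**
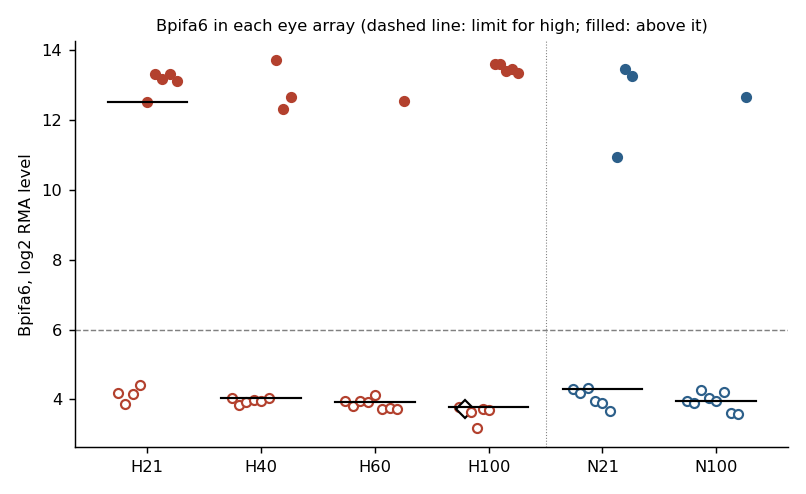
Level of Bpifa6 (log2 RMA) in each of 56 eye arrays by gas group, with 1 point an array, filled where the level exceeds 6, and a line at each group's median. Levels fall into 2 ranges in every group; 5 of 11 H100 eyes and 1 of 9 N100 eyes are in the upper one, and the diamond marks H100 replicate 6.

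The second is the array H100 replicate 6, whose levels of several genes lay among those of N100 eyes. Among the 10 genes with the smallest p for a higher level in H100 eyes, which are named below, it had the lowest value of the 11 H100 eyes for 6 and fell inside the N100 range for 8. Among the 10 genes with the smallest p for a lower level, it had the highest H100 value for 2. It fell inside the N100 range for 6 of these 10. For the others, Ank1, Snx31, Cysltr1 and Ky, it lay below all 9 N100 eyes. For Ky (5.52) it was also the lowest H100 eye, the end away from the N100 eyes. The mean of H100 replicate 6 over 24 glucocorticoid-responsive genes, 7.43, was below all 9 N100 eyes (7.55 to 7.81). The array of brain with the same group and number was the lowest H100 brain for Mt1 (10.13), Mt2 (9.97), Txnip (8.87) and Pik3ip1 (7.33), but not for Pfkp (10.63), where it ranked 9 of 11 from the lowest. The lung array with that number was the lowest H100 lung for Mt2 (8.95) and Pik3ip1 (7.65), but ranked 3 of 11 for Mt1 (9.70), 5 of 11 for Pfkp (8.31) and 10 of 11 for Txnip (12.03). Of the genes named below as differing between eye and lung, it was the lowest H100 lung for Ntrk2 (6.42), Adamtsl2 (7.79), Scnn1a (9.09) and Jam2 (8.38), all higher in H100 lungs. It ranked 4 of 11 for Igf2bp1 (6.57), also higher there. It was the highest for Rspo2 (7.88) and Slc25a13 (7.37), both lower in H100 lungs. For each of these genes the array lay inside the N100 lung range. The eye array was singled out on such values. Results without it are therefore given beside those with it and not in their place. The arrays also fall into 2 blocks by their place in the deposited table, the first columns and the rest, and 7714 of 19937 genes differed between the blocks in eye arrays. The labels do not say what this split is. The first block held 6 H100 and 8 N100 eyes and the rest held 5 H100 and 1 N100 eyes. The fit carried the block as a term. The rest, with 1 N100 eye, could give no comparison of its own.

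Hypoxia followed by pure oxygen left no gene of the eye past an adjusted p of 0.05 when all 20 arrays were used: 0 of 19937 genes (0.0%) were called by limma. The smallest adjusted p was 0.101. At an unadjusted p under 0.05, 833 genes were higher (4.18%) and 692 lower (3.47%) in H100 eyes, and the median difference over all genes was 0.01. Counts of list members below are read against these shares. By p, the first genes on the higher side were Pik3ip1, Hbp1 and Pfkp and the first on the lower side were Nckap5, Mvb12b and Rnf19b. Txnip and Mt2 were also among the first 10 on the higher side, and Mt1 and Selenbp1 are described because they were called without replicate 6.

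Pik3ip1, an inhibitor of PI3K in the cell membrane (probe set 10373740), had the smallest p. Its level was lowest at 7.91, median 8.30 and highest at 8.53 in H100 eyes, against 7.53, 7.83 and 8.01 in N100 eyes. The groups overlapped through H100 replicate 6 alone: the other 10 H100 eyes, from 8.21 upward, were all above the N100 eyes. The difference was 0.53 ± 0.10 on the log2 scale (SE, limma), with an adjusted p of 0.101. Without replicate 6 it was 0.58 ± 0.10 with an adjusted p of 0.0155, and with high Bpifa6 as a term it was 0.57 ± 0.10 with an adjusted p of 0.0127.

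Pfkp, the platelet-type phosphofructokinase of glycolysis (probe set 10407481), lay at 9.44, 9.78 and 10.10 (lowest, median and highest) in H100 eyes, against 9.18, 9.35 and 9.53 in N100 eyes. Again 10 of the 11 H100 eyes were above all 9 N100 eyes, and replicate 6, at 9.44, was not. The difference was 0.51 ± 0.11 with an adjusted p of 0.171, or 0.56 ± 0.12 with 0.0398 without replicate 6. Pfkp was lower by 0.27 ± 0.07 in arrays with high Bpifa6 (adjusted p = 0.00326), and with that term the difference between H100 and N100 eyes was 0.60 ± 0.10 (adjusted p = 0.00714).

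The metallothioneins Mt1 and Mt2, small proteins that bind zinc and copper, both had a higher median in H100 eyes. They were the 2 of 3 measured metallothioneins with a positive difference. Mt2 (probe set 10574023) had 8.74, 10.30 and 11.01 in H100 eyes, against 8.50, 9.39 and 9.94 in N100 eyes, and Mt1 (probe set 10574027) had 8.96, 10.31 and 10.91 in H100 eyes, against 9.09, 9.58 and 9.96 in N100 eyes. Replicate 6 was the lowest H100 eye for both, and for Mt1 it lay below every N100 eye. The differences were 0.79 ± 0.21 for Mt2 (adjusted p = 0.325) and 0.50 ± 0.14 for Mt1 (adjusted p = 0.378). Without replicate 6 they were 0.95 ± 0.19 (adjusted p = 0.0387) and 0.62 ± 0.12 (adjusted p = 0.0221). Neither differed between arrays with and without high Bpifa6 at the threshold (adjusted p = 0.978 and 0.455).

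Txnip, an arrestin-like protein that binds thioredoxin and lowers glucose uptake, was at 10.80, 11.25 and 11.51 in H100 eyes, against 10.61, 10.77 and 11.32 in N100 eyes. The single N100 eye with high Bpifa6 was the highest of its group. The difference was 0.40 ± 0.10 (adjusted p = 0.225). Txnip was itself higher by 0.24 ± 0.06 in arrays with high Bpifa6 (adjusted p = 0.00123), and with that term the difference between H100 and N100 eyes was 0.31 ± 0.09 (adjusted p = 0.395).

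The other named genes on the higher side were Hbp1, a repressor of cell cycle genes (0.34 ± 0.07), Pot1a, which caps telomeres (0.37 ± 0.09), Wdr45, a lipid-binding protein of autophagy (0.38 ± 0.09), Hacl1, an enzyme of peroxisomal fatty acid oxidation (0.30 ± 0.08), Adamts1, a secreted protease of matrix proteoglycans (0.30 ± 0.07), and Tmem35b (0.34 ± 0.08). Their adjusted p-values ran from 0.101 to 0.27. Selenbp1, a selenium-binding protein, joined the list without replicate 6: it had 6.13, 7.08 and 7.35 in H100 eyes, against 6.04, 6.47 and 6.78 in N100 eyes, a difference of 0.50 ± 0.13, and 0.59 ± 0.12 (adjusted p = 0.0387) without it. Selenbp1 was also higher in arrays with high Bpifa6, by 0.27 ± 0.08 (adjusted p = 0.012).

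**Figure D2:**
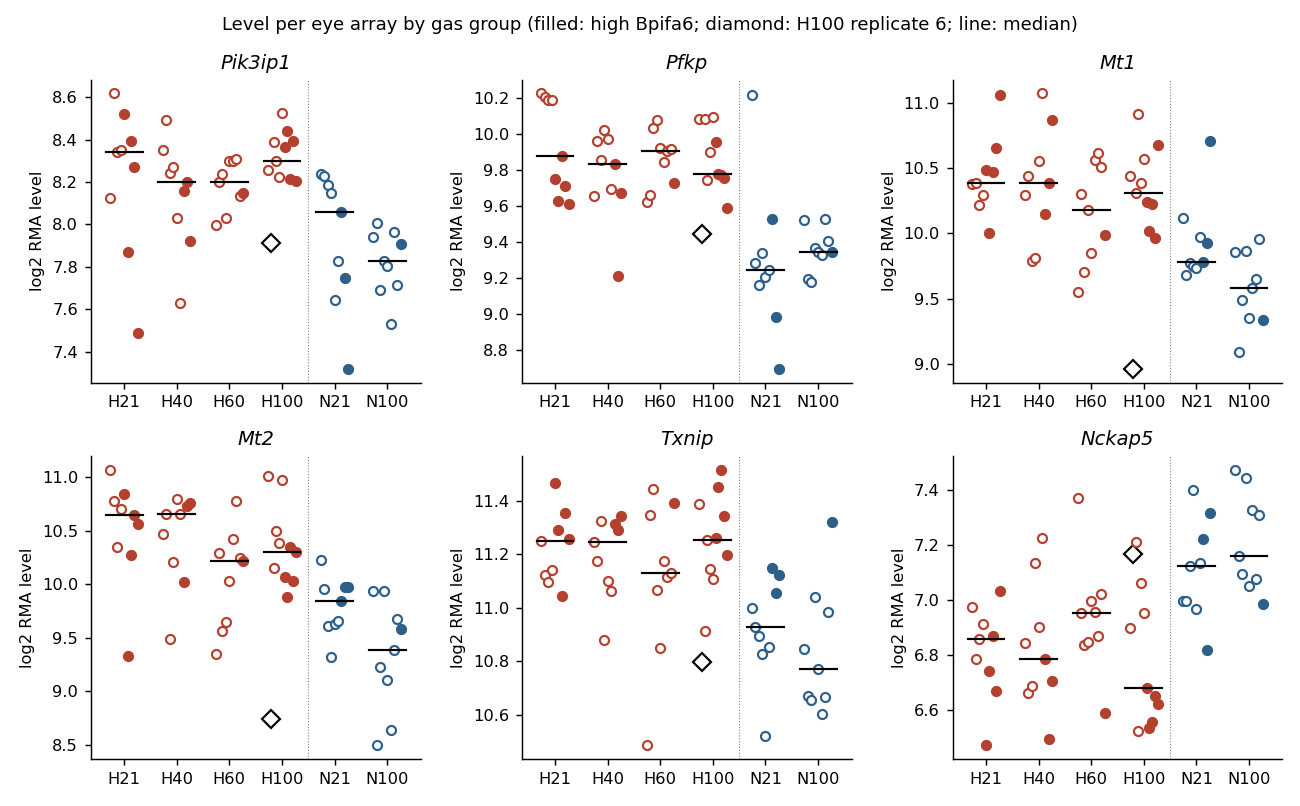
Log2 RMA levels of 6 genes in each eye array (1 point an array, filled where Bpifa6 is high, diamond for H100 replicate 6, line at the median), with hypoxia groups left of the dotted line and normoxia groups right of it. The H100 median lies above the N100 median for Pik3ip1, Pfkp, Mt1, Mt2 and Txnip and below it for Nckap5, while the diamond lies at the N100 end of each H100 group except for Nckap5, where 1 other eye is higher.

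On the lower side, Nckap5 (probe set 10357345) had the smallest p. It had 6.52, 6.68 and 7.21 in H100 eyes, against 6.99, 7.16 and 7.47 in N100 eyes, so the groups overlapped. The difference was -0.45 ± 0.09 (adjusted p = 0.101), or -0.50 ± 0.09 (adjusted p = 0.0221) without replicate 6, which had 7.17. Nckap5 was lower by 0.21 ± 0.06 in arrays with high Bpifa6 (adjusted p = 0.00691), and with that term the difference was -0.37 ± 0.09 (adjusted p = 0.233).

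Mitf, the factor that governs pigment cells and the pigment epithelium behind the retina, had 7.21, 7.52 and 7.88 in H100 eyes, against 7.64, 7.84 and 8.06 in N100 eyes. The difference was -0.30 ± 0.08 (adjusted p = 0.325), and it was -0.29 ± 0.08 with high Bpifa6 as a term. The remaining 8 were Ank1, an ankyrin of the membrane skeleton (-0.20 ± 0.05), Rtn4rl1, a Nogo receptor family member (-0.36 ± 0.09), Mvb12b, a subunit of the endosomal ESCRT-I complex (-0.37 ± 0.08), Rnf19b, a ubiquitin ligase (-0.30 ± 0.07), Cysltr1, a leukotriene receptor (-0.38 ± 0.10), Ky, a muscle protein (-0.40 ± 0.10), the sorting nexin Snx31 (-0.33 ± 0.08) and Nol4l (-0.34 ± 0.08). The plain means of Rnf19b were 7.52 in H100 and 7.69 in N100 eyes, a smaller gap than the fit with the block term gave. Of the 10 genes on this side, 4 also differed between arrays with and without high Bpifa6 (Nckap5, Mvb12b, Rtn4rl1 and Nol4l, each lower with it), against 2 of the 10 on the higher side (Pfkp and Txnip).

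Leaving out replicate 6 gave 6 calls (0.0301% of genes): Mt2, Mt1, Selenbp1, Pik3ip1 and Pfkp higher and Nckap5 lower. With high Bpifa6 as a term, 2 genes were called (0.01%), Pfkp and Pik3ip1. With both changes, 6 genes were called, all higher: Mt2, Mt1, Pfkp, Pik3ip1, Wdr45 and Tcp11, the last outside the naming rule and named because it was called. When the 18 arrays with high Bpifa6 were left out, 0 genes were called, with 1025 at an unadjusted p under 0.05, and the differences were 0.52 ± 0.12 for Pik3ip1, 0.55 ± 0.13 for Pfkp and 0.78 ± 0.27 for Mt2. Weights for array quality gave 199 calls (0.998%), 135 higher and 64 lower, among them all 20 named genes. Of the H100 eyes, 4 of the 5 with high Bpifa6 had the largest weights (1.80 to 2.23) and the other 7 had 0.39 to 1.09. Within the first block alone, which has 6 H100 and 8 N100 eyes, 0 genes were called and the differences were 0.43 ± 0.10 for Pik3ip1, 0.45 ± 0.14 for Pfkp, 0.72 ± 0.27 for Mt2 and -0.45 ± 0.11 for Nckap5.

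Only 2 genes had no overlap between the 11 H100 and 9 N100 eyes (0.01% of genes), and 15 had none once replicate 6 was left out (0.0752%). The 2 were Oca2, a melanosome membrane protein, and Me2, the mitochondrial malic enzyme, which are named for this reason and not by the naming rule. Oca2 had 9.01 to 9.34 in H100 eyes, against 8.39 to 8.96 in N100 eyes, with a difference of 0.33 ± 0.13 (adjusted p = 0.57). Pik3ip1, Pfkp, Mt1, Hacl1 and Mvb12b were among the 15.

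The arrays of H21, H40 and H60 eyes against N21 eyes measure hypoxia in animals that the H100 and N100 comparison does not use. There 1 gene passed the adjusted threshold (0.00502% of genes). This was Pfkp, which rose by 0.55 ± 0.10 (adjusted p = 0.00948), close in size to the 0.51 of H100 against N100. Its lowest, median and highest levels were 9.61, 9.88 and 10.23 in H21 eyes, 9.21, 9.83 and 10.03 in H40 eyes and 9.62, 9.91 and 10.08 in H60 eyes, against 8.69, 9.24 and 10.22 in N21 eyes. One N21 eye reached the top of the hypoxia groups and 1 H40 eye lay at 9.21, so the groups overlapped. With high Bpifa6 as a term the rise was 0.55 ± 0.09 (adjusted p = 0.000659), and H21 against N21 by itself gave 0.63 ± 0.12 (adjusted p = 0.0344). The call was absent in 4 alternative fits, among them the one without the arrays of high Bpifa6.

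Of the 10 genes named on the higher side in H100 eyes, 10 had a positive difference in these other arrays, against 53.2% of all genes, and 9 of them an unadjusted p under 0.05, against 1.63% of all genes. The exception in size was Hacl1, at 0.03 ± 0.06. Mt2 stood at 0.56 ± 0.17 and Mt1 at 0.43 ± 0.11, Txnip at 0.24 ± 0.08 and Pik3ip1 at 0.23 ± 0.09. The 10 lower genes did so less uniformly. Of these, 7 had a negative difference, against 46.8% of all genes, and 4 of them an unadjusted p under 0.05 (Nckap5, Ky, Cysltr1 and Mitf), against 1.22%. Mvb12b, Rnf19b, Ank1, Rtn4rl1, Nol4l and Snx31 lay between -0.03 and 0.03. Both contrasts came from the same fit and shared its estimates of each gene's spread and of the block. Picking genes by a small p favours a small spread, which lowers p in the other contrast too. The shares over all genes are therefore not a like comparison for these p-values.

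**Figure D3:**
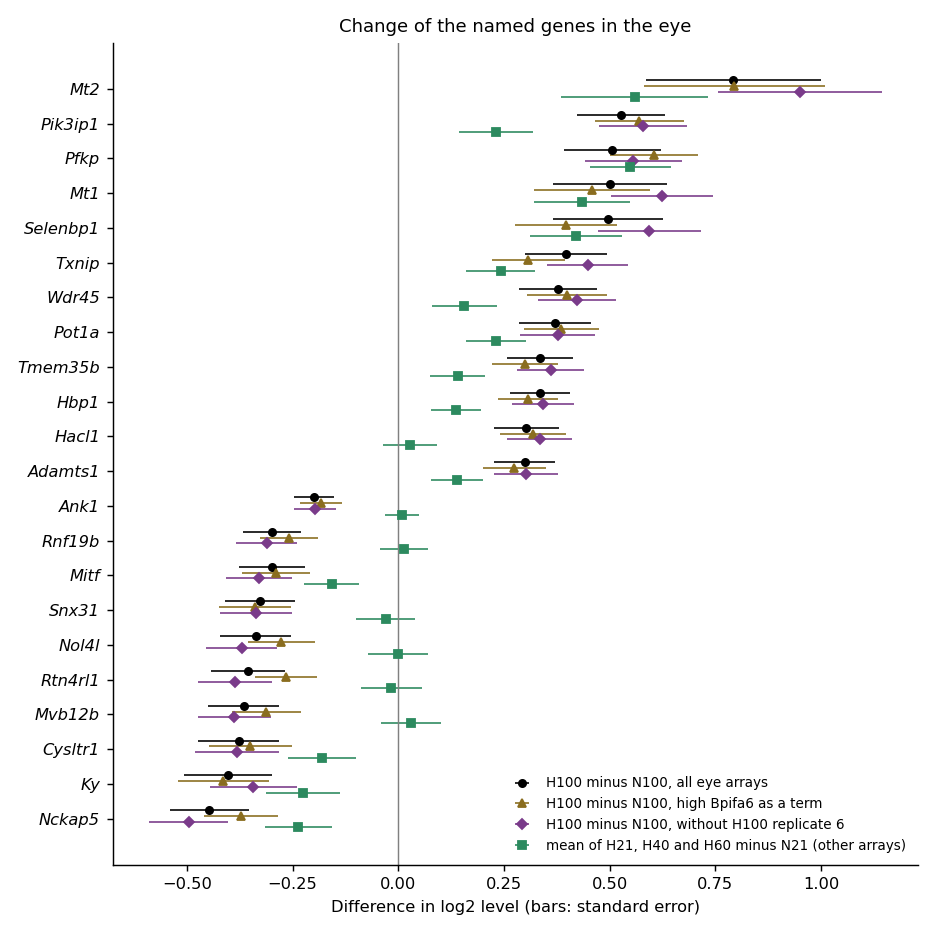
Difference in log2 level with its standard error for 22 named genes, in H100 against N100 eyes (all arrays, with high Bpifa6 as a term, and without H100 replicate 6) and in the other hypoxia eyes against N21 eyes. The 12 genes on the higher side stay positive in all 4 fits, and for Pfkp all 4 lie between 0.51 and 0.60, while 6 of the 10 lower genes lie near 0 in the other arrays.

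Whether the hypoxia effect under 100% oxygen differed from that in air was tested as (H100 minus N100) minus (H21 minus N21). The count of calls was 0 (0.0%) by limma, and 557 genes came under an unadjusted p of 0.05. The estimate was -0.12 ± 0.17 for Pfkp, 0.06 ± 0.30 for Mt2 and 0.26 for Pik3ip1, each with an adjusted p of 0.999. These standard errors, from 9 to 11 eyes a group, set the size of difference that could be seen. Oxygen without hypoxia, N100 against N21, gave 0 calls as well, with 437 genes at an unadjusted p under 0.05.

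The promoters of Pfkp, Pik3ip1, Mt2 and Mt1 are shown as the metallothionein pair and the 2 genes called with high Bpifa6 as a term; Selenbp1 and Nckap5, called with them once replicate 6 was left out, are given by their matches alone. They come from RefSeq (mouse GRCm38.p6) and run from 250 bases before to 50 after the annotated start, in the direction of the gene. Capitals mark ACGTG or GCGTG, the core of the hypoxia response element that HIF binds, on either strand.
Pfkp, chr13:6648722-6649021, minus strand: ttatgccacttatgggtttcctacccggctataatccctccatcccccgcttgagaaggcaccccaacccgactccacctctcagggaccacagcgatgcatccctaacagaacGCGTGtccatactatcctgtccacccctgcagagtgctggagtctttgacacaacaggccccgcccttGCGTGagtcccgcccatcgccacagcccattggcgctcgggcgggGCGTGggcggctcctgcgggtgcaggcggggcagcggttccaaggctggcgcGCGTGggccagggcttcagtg
Pik3ip1, chr11:3330481-3330780, plus strand: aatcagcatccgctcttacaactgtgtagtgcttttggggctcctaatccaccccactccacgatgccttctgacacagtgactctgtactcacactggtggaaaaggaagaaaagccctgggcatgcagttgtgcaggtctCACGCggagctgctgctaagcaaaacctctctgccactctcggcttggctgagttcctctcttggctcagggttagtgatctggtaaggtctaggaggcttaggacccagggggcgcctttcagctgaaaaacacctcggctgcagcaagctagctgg
Mt2, chr8:94172368-94172667, plus strand: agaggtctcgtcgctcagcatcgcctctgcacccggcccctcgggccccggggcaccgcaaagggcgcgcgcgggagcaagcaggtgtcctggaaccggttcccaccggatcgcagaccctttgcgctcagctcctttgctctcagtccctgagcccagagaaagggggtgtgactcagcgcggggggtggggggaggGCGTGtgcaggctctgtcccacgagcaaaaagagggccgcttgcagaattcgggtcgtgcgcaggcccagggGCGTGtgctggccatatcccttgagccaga
Mt1, chr8:94178839-94179138, plus strand: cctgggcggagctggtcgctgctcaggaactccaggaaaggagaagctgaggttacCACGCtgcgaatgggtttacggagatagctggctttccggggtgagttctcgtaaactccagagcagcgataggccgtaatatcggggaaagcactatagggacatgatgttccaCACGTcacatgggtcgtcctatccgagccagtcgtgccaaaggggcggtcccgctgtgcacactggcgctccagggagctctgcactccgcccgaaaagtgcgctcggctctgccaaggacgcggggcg
Pfkp had 4 matches, Mt2 and Mt1 had 2 each and Pik3ip1 had 1. Selenbp1 had 3, and Nckap5 had 2 in 1 of its windows and 0 in the other. For 18 of the 22 named genes there were 22 windows in all, since Mitf, Nckap5 and Nol4l have several, and 13 of these windows held at least 1 match, while the core occurs in 14380 of 32851 such windows (43.8%) in the mouse. The full glucocorticoid response element, AGAACA and TGTTCT with 3 bases between them, occurred in none of the 22 windows and in 3 of all windows (0.00913%). So rare a sequence could hardly be met in 22 windows, so its absence carries no information. A match describes these letters and not binding.

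Among 20 measured HIF targets of glycolysis and glucose handling, 5 were higher and 0 lower in H100 eyes at an unadjusted p under 0.05, with a list median of 0.09 against 0.01 over all genes. Besides Pfkp they were hexokinase Hk2 (0.36 ± 0.12), Pdk1, which holds pyruvate back from the mitochondrion (0.20), Pgk1 (0.19) and pyruvate kinase Pkm (0.27), and none of the 20 passed adjustment. Of this list, 8 genes were lower and 1 higher in arrays with high Bpifa6, and with that term 6 were higher at an unadjusted p under 0.05 (4.27% of all genes) and 0 lower (2.76%), with a median of 0.15. With array weights 10 of the 20 were positive and the median was 0.02. In the other hypoxia eyes 2 of the 20 were higher at an unadjusted p under 0.05 (1.63% of all genes), Pfkp and Pgk1 (0.17), and only Pfkp passed adjustment.

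The 29 other HIF targets did not move as a group: 1 was higher and 0 lower, and their median was -0.01. The one was Adm, the vessel dilator adrenomedullin (0.27 ± 0.13). Vegfa, the vessel growth factor, had 8.92, 9.16 and 9.60 in H100 eyes, against 8.58, 9.04 and 9.51 in N100 eyes, a difference of 0.08 ± 0.10. Hmox1, heme oxygenase, stood at -0.27 ± 0.14. Among 11 HIF subunits and hydroxylases, 1 passed the unadjusted threshold, the prolyl hydroxylase Egln2 (0.25 ± 0.12). Hif3a stood at 0.21 ± 0.11 in the fit with the block term, but its plain means were 5.92 in H100 and 5.90 in N100 eyes. Among 19 VEGF, angiopoietin and receptor genes, Nrp1 was higher (0.21) and Angpt1 and Dll4 were lower (-0.29 ± 0.11 and -0.22 ± 0.10).

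Of 24 measured glucocorticoid-responsive genes, 20 had a positive difference, against 52.0% of all genes, and 8 were higher and 0 lower at an unadjusted p under 0.05, with a median of 0.17. They were Mt2, Mt1, Map3k6 (0.28), the receptor chaperone Fkbp5 (0.27 ± 0.08), the transcription factor Zbtb16 (0.40 ± 0.13), Plin4 (0.34), Sult1a1 (0.32) and Nfkbia (0.15). Fkbp5 had 7.88, 8.15 and 8.48 in H100 eyes, against 7.78, 7.98 and 8.12 in N100 eyes. Sgk1 (0.04 ± 0.08) and the clock gene Per1 (-0.05 ± 0.09), both known glucocorticoid targets, lay near 0.

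The mean of the 24 genes was 7.43 at the lowest, 7.92 at the median and 8.06 at the highest in H100 eyes, against 7.55, 7.67 and 7.81 in N100 eyes. It was 7.48 to 8.20 over the H21, H40 and H60 eyes, against 7.57 to 7.86 in N21 eyes, where 7 of the 24 were higher and 0 lower with a median of 0.09. Without replicate 6, 10 of the 24 were higher in H100 eyes (5.51% of all genes) and the median was 0.20. Lcn2, which belongs to this list and to the neutrophil and acute-phase lists, stood at 0.68 ± 0.52 and was higher by 1.93 in arrays with high Bpifa6; with that term it stood at -0.02.

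Of 17 measured genes of the FoxO and PI3K brake list, 16 had a positive difference, 8 were higher and 0 lower, and the median was 0.18. Besides Pik3ip1 and Txnip they were Sesn1, a sestrin that restrains mTORC1 (0.25 ± 0.07), the arrestin Arrdc3 (0.33), the cyclin Ccng2 (0.22), the insulin receptor Insr (0.26), its relative Igf1r (0.22) and Klf15 (0.18). Of these, Insr and Igf1r are receptors that activate PI3K and are not brakes on it. Sesn1 had 9.56, 9.67 and 9.91 in H100 eyes, against 9.24, 9.52 and 9.63 in N100 eyes. The mean of the 17 was 8.67 to 8.87 in H100 eyes, against 8.54 to 8.75 in N100 eyes. With high Bpifa6 as a term 8 were higher at that threshold, 14 of 17 were positive and the median was 0.18, and in the other hypoxia eyes 5 passed, with 17 of 17 positive and a median of 0.09. Fbxo32, an atrophy ubiquitin ligase named after its values were seen, stood at 0.46 ± 0.13, and at 0.29 ± 0.09 with high Bpifa6 as a term; it was higher by 0.48 in arrays with high Bpifa6.

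**Figure D4:**
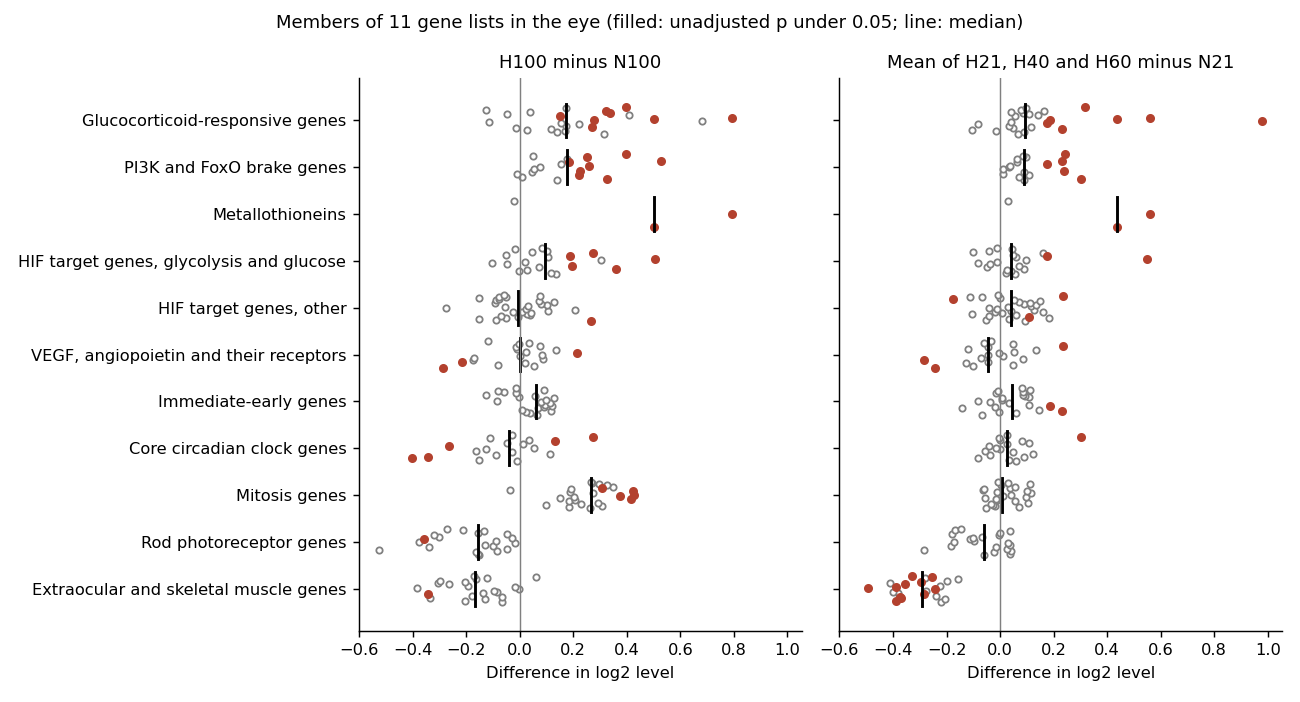
Differences in log2 level of every measured member of 11 gene lists, for H100 against N100 eyes on the left and the other hypoxia eyes against N21 eyes on the right, with 1 point a gene, filled at an unadjusted p under 0.05, and a line at the list's median. The medians of the glucocorticoid, PI3K and FoxO and metallothionein lists lie right of 0 in both panels, with some members left of 0, the mitosis list has a median of 0.27 on the left and 0.01 on the right, and the median of the muscle list lies left of 0 in both.

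Of 22 immediate-early genes, 0 passed the unadjusted threshold in either direction (median 0.06), with Klf4 at -0.13 ± 0.09. Junb stood at 0.13 ± 0.12 in the fit with the block term, but its plain means were 6.32 in H100 and 6.30 in N100 eyes. Of 12 heat shock proteins, 0 passed and 0 were positive (median -0.09), and of 18 genes of the ATF4 and unfolded protein responses 0 passed. Among 20 NRF2 antioxidant genes, 0 were higher and 3 lower, Slc7a11 (-0.26), Sod3 (-0.19) and Nfe2l2 (-0.18), with a median of -0.01. Without replicate 6, 1 of the 20 was lower, against 778 of all 19937 genes. Of 31 oxidative phosphorylation subunits, 0 passed. Of 15 cholesterol synthesis genes, 3 were lower and 0 higher in H100 eyes (Msmo1, -0.25 ± 0.11, Sc5d, -0.18, and Cyp51, -0.17), and 3 were lower in the other hypoxia eyes too.

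The clock list was mixed, with 2 of 18 genes higher (Rorb, 0.27, and Per2, 0.13) and 3 lower (Bhlhe41, -0.40 ± 0.13, Ciart, -0.34 ± 0.15, and Nr1d1, -0.26). Of the 18, 5 were lower in arrays with high Bpifa6, and with that term 1 passed on each side. Among 16 acute-phase and STAT3 genes, Stat3 itself (0.30 ± 0.09) and Cp, ceruloplasmin (0.22), passed the unadjusted threshold. The chemokine and interferon lists had 1 of 17 and 0 of 14 members past it, with Cxcl10 at 0.27 ± 0.26 and Ifit1 at 0.25 ± 0.21.

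Of 24 mitosis genes, 23 had a positive difference and 5 were higher, with a median of 0.27, among them Kif11, a spindle motor (0.43 ± 0.20), Mki67 (0.42 ± 0.21) and Cdc20 (0.42). The mean of the 24 ran from 6.82 to 7.78 in H100 eyes, against 6.66 to 7.73 in N100 eyes, so the groups covered nearly the same range. In arrays with high Bpifa6, 15 of the 24 were higher at an adjusted p under 0.05; with that term 1 passed the unadjusted threshold for H100 against N100 and the median was 0.14. With array weights 22 of the 24 were higher (7.5% of all genes), and without replicate 6, 2 were. In the other hypoxia eyes 0 passed and the median was 0.01.

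Of 21 rod genes, 0 were positive and 1 was lower, Pde6g, a phosphodiesterase subunit of the light response (-0.36), with a median of -0.16. The rod transducin Gnat1 had 7.57, 8.03 and 10.29 in H100 eyes, against 7.52, 8.61 and 10.57 in N100 eyes, a difference of -0.53 ± 0.37. Without replicate 6, 0 were lower (778 of all 19937 genes), and with array weights 5 were (7.48% of all genes). In arrays with high Bpifa6, 11 of the 21 were lower, and with that term 0 passed and the median was -0.05. The mean of the rod list spanned 9.08 to 10.11 in H100 eyes, against 9.06 to 10.25 in N100 eyes. In bulk tissue fewer cells of a type and less RNA per cell cannot be told apart, and the part of high Bpifa6 in these differences beyond the values with that term was not tested.

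The 25 genes of bipolar, amacrine and ganglion cells had 4 positive, 0 higher and 1 lower (median -0.12), with Grm6 at -0.46 ± 0.28. With array weights 7 of them were lower (median -0.22), and with high Bpifa6 as a term 1 was lower (median -0.10). Of 12 cone genes 1 was higher, with Arr3 at -0.43 ± 0.22. Of 24 lens genes 1 was lower, and Crygf stood at -0.26 ± 0.13, and 8 of the 24 were lower in arrays with high Bpifa6. The pigment list had Oca2 higher and Mitf lower among 16, with Rpe65, the retinoid isomerase of the pigment epithelium, at -0.54 ± 0.32; 9 of the 16 were lower in arrays with high Bpifa6, and with that term 4 were higher and 1 lower for H100 against N100. The cornea list had 1 of 18 lower, with Krt13 at -0.27 ± 0.18, and the stroma and sclera list 0 of 18, with Col1a2 at 0.22 ± 0.22.

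Of 15 retinal glia genes 1 was higher, Pdgfra (0.24 ± 0.11), and of 14 progenitor genes 1 was lower, Sfrp2 (-0.24 ± 0.11). Among 28 DNA replication genes 2 were higher and 25 positive, with Rfc5 at 0.23 ± 0.10, and 11 of the 28 were higher in arrays with high Bpifa6; with that term 0 passed. Of 15 p53 and cell death genes 1 was higher, Sesn1. Among 19 endothelial genes 1 was higher, Robo4 (0.17), and 3 lower, among them Slco1a4, a transporter of the blood-retina barrier (-0.31 ± 0.11), and Emcn (-0.24 ± 0.11). Of 12 smooth muscle and pericyte genes 1 was lower, Rgs5 (-0.38 ± 0.13).

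Markers of other cells that the sample could hold were also read. Of 22 skeletal muscle genes 1 was lower in H100 eyes, the oxygen store Mb (-0.34 ± 0.15), and 1 of 22 was positive, with a median of -0.17. In the other hypoxia eyes 11 of the 22 were lower and the median was -0.29. The mean of the muscle list ran from 8.89 to 10.19 in H100 eyes, against 9.47 to 10.26 in N100 eyes. Among 14 neutrophil genes 0 passed, with Ltf at 1.49 ± 0.80, and among 14 brown fat genes 1 was higher, Pparg (0.72 ± 0.35), with Elovl3 at 0.78 ± 0.46. Ltf, Pparg and Elovl3 were higher by 3.57, 1.51 and 1.82 in arrays with high Bpifa6, and with that term stood at 0.20, 0.17 and 0.11.

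Red cell genes had 1 of 5 lower (Epb42, -0.18 ± 0.09), microglia and macrophage genes 1 of 17 higher (Cd163, 0.38 ± 0.15) and lymphocyte genes 0 of 10 past the unadjusted threshold (Cd3g at 0.20 ± 0.10). Of 12 type 2 alveolar genes 1 was higher and 1 lower, with Sftpd at 0.69 ± 0.37 and at 0.11 with high Bpifa6 as a term. Myelin genes had 0 of 12 past it (Mag at -0.34 ± 0.18) and forebrain neuron genes 1 of 10 higher and 1 lower (Ppp1r1b, 0.25 ± 0.10, and Slc17a7, -0.40 ± 0.19). The part of these markers in the results was not tested.

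The same contrast in lung and brain was set beside that in eye. There were 0 calls in eye, against 26 in lung (0.13% of genes) and 3 in brain (0.015%). Tested as a difference between tissues, 7 genes responded differently in eye and lung (0.0351%): Ntrk2, Adamtsl2, Scnn1a, Jam2 and Igf2bp1 were lower and Rspo2 and Slc25a13 higher in eye relative to lung. Between eye and brain 0 genes differed (0.0%), with 691 at an unadjusted p under 0.05. The series describes 62 mice for its 177 arrays, so arrays of different tissues shared mice. The fit behind both comparisons treated all arrays as independent, with a single spread a gene for all tissues. For Adamtsl2 the SD was 0.48 in H100 lungs and 0.14 in H100 eyes, and for Scnn1a it was 0.26 and 0.36. The part of this in the calls was not tested.

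For 5 of the 7 genes the eye value was negative and the lung value positive, and for the other two the eye value was positive and the lung value negative. Ntrk2, the receptor of the neurotrophin BDNF, stood at -0.10 ± 0.08 in eye and 0.82 ± 0.12 in lung, a difference of -0.93 ± 0.13 (adjusted p = 2.21e-06). Adamtsl2, a matrix protein, stood at -0.01 ± 0.07 in eye and 0.82 ± 0.19 in lung (difference -0.83, adjusted p = 0.0452). The tight junction protein Jam2 stood at -0.16 ± 0.08 and 0.46 ± 0.10 (difference -0.62, adjusted p = 0.00561).

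Scnn1a, a subunit of the epithelial sodium channel, stood at -0.29 ± 0.11 in eye and 0.48 ± 0.12 in lung. Its level in eye was low, 4.16 to 5.58 in H100 and 4.92 to 5.71 in N100 eyes, below the eye median of 6.35 over all probe sets. The eye value of Scnn1a is thus that of a gene with little signal there. Igf2bp1, which binds messenger RNA, stood at -0.24 ± 0.11 in eye and 0.35 ± 0.07 in lung. Its median levels were 6.38 in H100 and 6.59 in N100 eyes, near that eye median. Rspo2, a Wnt pathway enhancer, stood at 0.25 ± 0.08 in eye and -0.46 ± 0.16 in lung, and Slc25a13, a mitochondrial aspartate carrier, at 0.35 ± 0.11 in eye and -0.18 ± 0.08 in lung. Rspo2 was also at 0.25 ± 0.07 in the other hypoxia eyes. Its levels were 6.99, 7.13 and 7.35 in H100 eyes, against 6.69, 6.87 and 7.13 in N100 eyes.

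For the genes with the smallest p in eye, the values in the other tissues were these. Mt2, at 0.79 ± 0.21 in eye, rose by 1.16 ± 0.23 in brain (adjusted p = 0.0425) and stood at 0.33 ± 0.18 in lung. Mt1, at 0.50 in eye, stood at 0.51 ± 0.13 in brain and 0.07 ± 0.10 in lung. Selenbp1 rose by 0.61 ± 0.13 in lung (adjusted p = 0.0162) and stood at -0.02 ± 0.09 in brain.

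Pfkp stood at 0.51 in eye, against 0.18 ± 0.08 in lung and 0.00 ± 0.12 in brain, and its difference of 0.51 ± 0.15 between eye and brain did not pass adjustment (adjusted p = 1). Pik3ip1 stood at 0.53 in eye, against 0.16 ± 0.09 in lung and 0.16 ± 0.08 in brain, with adjusted p-values of 0.86 and 1 for the differences. Nckap5 stood at -0.35 ± 0.15 in lung and -0.02 ± 0.10 in brain.

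**Figure D5:**
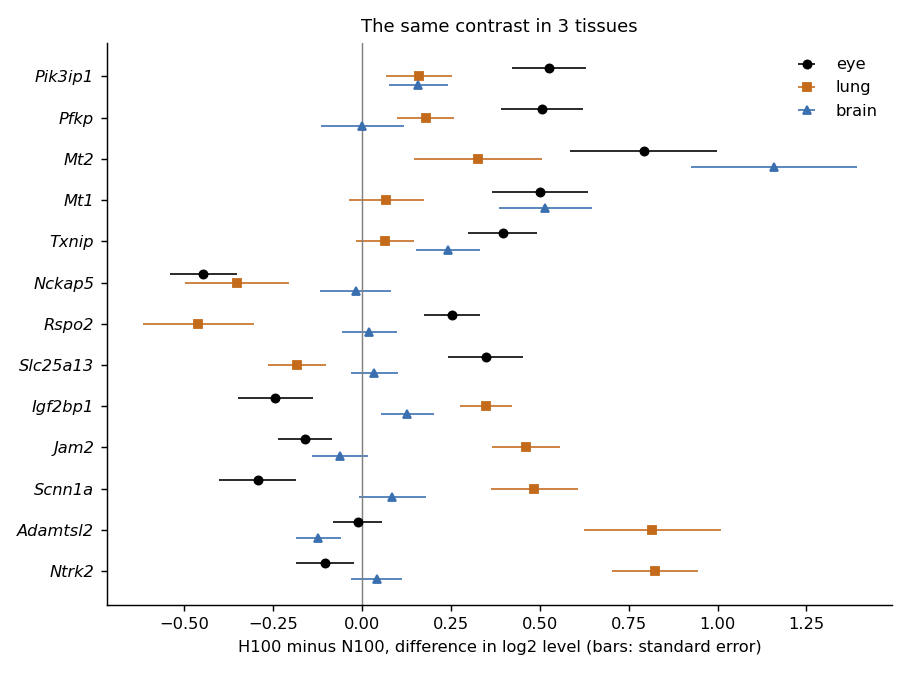
H100 minus N100 difference in log2 level with its standard error for 13 genes in eye, lung and brain. Eye and lung lie apart for the lower 7 genes, Rspo2 to Ntrk2, and Mt2 is positive in all 3 tissues, at 0.79 in eye, 0.33 in lung and 1.16 in brain.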

How the data were processed

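Total RNA of each tissue was hybridised to Affymetrix Mouse Gene 1.0 ST arrays, 1 sample an array. The authors deposited log2 values made with RMA (per the submitters' processing notes; version not given in the sources used here), and the 3 tissues had been normalized separately: median levels were 6.35 in eye, 6.25 in lung and 6.07 in brain, so levels are not set across tissues as tests. Of 34760 probe sets, 21640 had 1 gene symbol, 1321 several and 11799 none; 21553 of the first matched RefSeq by Entrez ID. One probe set a gene, that with the highest mean over the eye arrays, left 19937 genes, with no filter on low levels. For arrays, depth in reads does not apply, and the number of arrays limits the precision.

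All 6 eye groups were fitted together in limma 3.58.1 (R 4.3.3) with the table block as a term and without H40 replicate 9. Tests were two-sided with Benjamini-Hochberg adjustment over all genes, called at an adjusted p under 0.05. Tissue differences came from 1 fit of all arrays with the block within each tissue and no term for the mouse. The named genes were, for each direction, the called genes or else the 10 with the smallest p; genes called without H100 replicate 6; up to 5 genes a direction called between tissues; and the 2 largest changes of each of 40 gene lists (683 of 730 entries matched). Predicted genes, pseudogenes, chemosensory receptors, small RNAs and the genes used to read sex were skipped. The members, lists and tests were chosen with earlier results of these data known, and a list is described by counts and its median, not tested. Replicate numbers shared by H100 and N100 were checked for pairing. The scripts were tested on simulated data.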

Additional observations from a re-analysis of the deposited data

Results flagged for a closer look

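Among 110 sets of 1 gene in 1 eye group, 6 held an array whose gap to its neighbour exceeded Dixon's critical value, and chance flags about 1 such set in 20. They were Pfkp in H40 replicate 2 (9.21, against 9.66 in the next eye), Mt2 in H21 replicate 5 (9.33 against 10.27), Ank1 in H40 replicate 1 (6.77 against 6.66), Snx31 in H60 replicate 4 (6.72 against 6.37), Mitf in N21 replicate 6 (8.15 against 7.83) and Mt1 in N21 replicate 7 (10.71 against 10.12). The N100 eyes held none, and the 11 H100 eyes were not read this way because the test covers groups of up to 10.

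The H100 minus N100 difference itself differed between eye and lung for 7 genes. The eye minus lung values were -0.93 for Ntrk2 (adjusted p = 2.21e-06), -0.83 for Adamtsl2 (0.0452), -0.78 for Scnn1a (0.00848), -0.62 for Jam2 (0.00561), -0.59 for Igf2bp1 (0.00848), 0.71 for Rspo2 (0.048) and 0.53 for Slc25a13 (0.048), all from limma with adjustment over all genes.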

How the results depend on the processing

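The 22 named genes kept their direction in all 767 refits under 35 settings, and in 51 of these refits a gene was called. These genes were picked for a small p in this same contrast, with or without replicate 6. Of the 35 settings, 20 left out a single array. Their kept direction is therefore no separate evidence. The count of calls for H100 against N100 eyes, 0 in the reported fit, was 199 with array quality weights, 1 when the arrays were quantile-normalized again (Pik3ip1) and 1 without the arrays of low correlation (Pik3ip1). Leaving out 1 array at a time gave 0 to 6 calls: 6 without H100 replicate 6, 5 without H100 replicate 7 (Pik3ip1, Hbp1, Adamts1, Nckap5 and Rnf19b), 1 without H100 replicate 10 (Hbp1) and 0 without each of the other 17. With high Bpifa6 as a term it was 2, with that term and weights 14, and with that term and without H100 replicate 6 it was 6; these 3, the fits without arrays of high Bpifa6 and the one without low-correlation arrays were chosen after seeing the data. The 1 call of the other hypoxia eyes (Pfkp) became 0 in the first block alone, with H40 replicate 9 kept, with a replicate block beside the table block, and without the arrays of high Bpifa6. The 7 calls between eye and lung became 326 with weights and 6 without H100 replicate 6; the 0 between eye and brain became 169 with weights and stayed 0 without that array. The cause of these shifts was not tested. The interaction gave 0 calls in all its fits.

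The replicate numbers did not pair the samples: of 9 same-numbered pairs, 2 had a correlation of deviations over 0.1 (range -0.19 to 0.22). With a replicate block in place of or beside the table block, H100 against N100 gave 0 calls. Sex as a covariate, the dimmest 40% of genes left out, every probe set tested and no table block each gave 0. The number of arrays limits what can be seen: with 11 and 9 eyes, shifts such as 0.5 on the log2 scale in Pfkp lay on either side of the threshold.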
